A study of Macaca mulatta with 252 samples.

Results

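Primary motor cortex (M1) was compared with primary somatosensory cortex (S1) in adult rhesus macaques, layer by layer and as the mean of the layers. All arrays labelled as M1 or S1 in layers 2, 3, 5 and 6 were taken, 31 of the 252 arrays of the series, of which 225 held tissue of single animals and 27 were controls. M1 had 15 arrays, 3 of layer 2 and 4 each of layers 3, 5 and 6. S1 had 16 arrays, 4 of each layer, and the 4 arrays of S1 layer 4 were not used because M1 has no matching arrays. Both areas came from the same 4 animals, females D and E and males A and C, as named here. Female E had no M1 array of layer 2, so there were 15 pairs of M1 and S1 arrays of 1 animal and layer. The animals carried no transgene or treatment that the labels record, and their ages are not given in the sources used here. Each array measured amplified RNA from a laser-captured piece of 1 layer, so fewer cells of a type and less RNA per cell cannot be told apart.

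M1 lies in front of the central sulcus and sends commands to the spinal cord through its layer 5, which holds the giant pyramidal neurons known as Betz cells. It is called agranular because its layer 4 is not a distinct band of granule cells. S1 lies behind the sulcus, receives touch and body position from the thalamus and has a clear granular layer 4. Large projection neurons are rich in NEFH, the heavy neurofilament subunit that sets axon calibre, and in SPP1, the secreted phosphoprotein osteopontin. EPHA3 is a receptor tyrosine kinase for ephrin-A ligands, used in axon guidance and in the sorting of cells and projections.

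Levels are log2 intensities of 1 probe set per gene, and differences are M1 minus S1 on the log2 scale, so that 1 is a 2-fold difference. A gene was called when the Benjamini-Hochberg adjusted p of limma was under 0.05 over the 10323 genes tested. Layer 5 markers followed the labels in both areas. The mean level of the layer 5 neuron list was 8.73 ± 0.13 in M1 layer 5 and 8.45 ± 0.44 in S1 layer 5, against 7.05 ± 0.26 in M1 layer 3 and 6.82 ± 0.24 in S1 layer 3 (SD, n = 4 each). Excitatory neuron markers averaged between 9.40 and 10.2 over the M1 arrays and between 9.05 and 10.2 over the S1 arrays.

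3 M1 arrays stood apart from the other 28 arrays: female D layer 3, female E layer 3 and female E layer 5. The mean of their poly-A spike-in probe sets, foreign RNAs added before amplification, lay between 9.52 and 10.3, against 8.24 to 9.42 in the other arrays. Their correlation with the other arrays of their group lay between 0.950 and 0.966, against 0.973 to 0.988 in the others. They also had the narrowest spread of values over the array, with an SD of 1.99 to 2.05 against 2.07 to 2.17. All 3 come from females and from M1. The counts of genes called between M1 and S1, and several of the differences that rest on these arrays, are therefore also given without them. Leaving them out keeps layers 2, 5 and 6 of female D and layer 6 alone of female E, so values without them also weigh the layers differently. Over the 4 animals the difference in the poly-A mean was 0.64 in female D, 0.51 in female E, 0.036 in male A and -0.18 in male C (exact two-sided sign-flip permutation p = 0.375, where 4 animals allow none below 0.125). The group correlation was lower in M1 in every animal. Its difference was -0.0079 in female D, -0.0185 in female E, -0.004 in male A and -0.0017 in male C (same test, p = 0.125). For the males, the M1 groups of layers 3 and 5 include the 3 arrays, whose part in this was not tested.

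**Figure D1:**
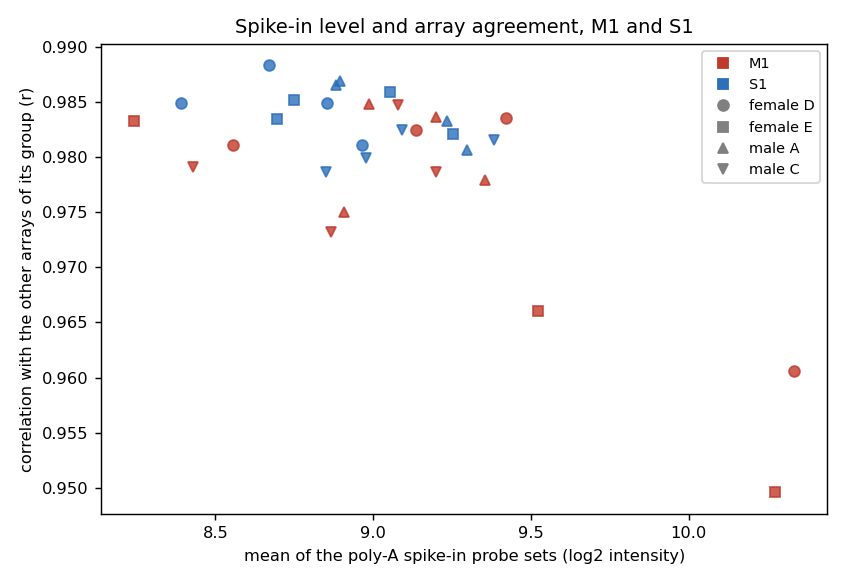
Each point is 1 array, placed by the mean of its poly-A spike-in probe sets (log2 intensity, horizontal axis) and by its correlation with the averaged remaining arrays from that area and layer (vertical axis). Red points are M1 and blue points S1, and the shape gives the animal. The 3 M1 arrays at the right have spike-in means of 9.52 to 10.3 and the 3 lowest correlations, 0.950 to 0.966.

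In the mean of the layers, no gene passed the test between M1 and S1: 0 of 10323 genes were called (0%), and the lowest adjusted p of limma was 0.717. At an unadjusted p under 0.05 there were 571 genes, 5.53% of those tested, with 157 higher and 414 lower in M1. A fit of the 31 single arrays also called 0 genes, with 1800 at an unadjusted p under 0.05. That fit counts the layers of 1 animal as separate replicates, so the 1800 cannot be set against the 571. In the fit of 1 value per animal, the 95% confidence interval of the difference lay within a 2-fold difference either way for 98.7% of the genes. It lay within 1.5-fold for 87.7%, and its median half-width was 0.25. 4 genes had an estimated difference of at least 2-fold, all of them lower in M1: ANO5 at -1.36 ± 0.45, EPHA3 at -1.29 ± 0.49, EGR2 at -1.24 ± 0.33 and MET at -1.15 ± 0.48 (± is the standard error here and for all fitted differences).

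The animals differed among themselves in which genes separated the areas. Across the 10323 genes, the M1 minus S1 differences of female D and female E correlated at r = 0.54, and the other 5 pairs of animals at -0.19 to 0.034. Without the 3 M1 arrays the correlation of the 2 females was 0.19, where female E has layer 6 alone. Within single layers the 2 females correlated at 0.42 in layer 3, 0.43 in layer 5 and 0.10 in layer 6, which holds none of the 3 arrays. These values run across genes, which are not independent replicates. The 3 arrays that stood apart include layer 3 of both females but layer 5 of female E alone. The M1 layer 5 array of female D lay within the other arrays, with a poly-A mean of 8.56 and a group correlation of 0.981. The part of the 3 arrays in these correlations was not tested beyond leaving them out. In all, 625 genes (6.05%) were higher in M1 in every animal and 722 (6.99%) were lower in every animal.

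NEFH was highest in layer 5 of both areas and had its largest estimated difference there. In layer 5 its level was 13.3 in female D, 13.2 in female E, 11.7 in male A and 12.97 in male C in M1, against 11.9, 10.7, 11.2 and 12.4 in the same animals in S1. M1 was above S1 in all 4 animals in that layer, while the 2 groups overlapped. The fitted layer 5 difference in NEFH was 1.24 ± 0.39 (adjusted p = 0.596), and it was 0.81 without the 3 M1 arrays. In layer 3 NEFH averaged 11.6 ± 0.63 in M1 and 10.9 ± 0.76 in S1, and in layer 6 it averaged 10.2 ± 0.56 in M1 and 10.0 ± 0.94 in S1 (SD, n = 4 each). Layer 2 had the lowest NEFH of the 4 layers, 8.81 ± 0.43 in M1 (SD, n = 3) and 8.15 ± 0.33 in S1 (SD, n = 4). Over all layers NEFH was higher in M1 in 12 of 15 pairs.

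In the mean of the layers the NEFH difference was 0.71 in female D, 1.24 in female E, 1.05 in male A and -0.016 in male C. The fitted difference was 0.75 ± 0.19, with an unadjusted p of 0.0056 and an adjusted p of 0.717, so NEFH did not pass the test over all genes. Without male C it was 1.00, and without the 3 M1 arrays it was 0.57. Set against the other areas, NEFH averaged 10.8 ± 0.33 in M1 (SD, n = 3 animals with all layers) and 10.2 ± 0.28 in S1 (SD, n = 4), while the means of the other 8 areas ran from 8.78 to 10.1. M1 and S1 held ranks 1 and 2 of the 10 areas in this order, and S1 differed from MT, the middle temporal area, by less than the spread between animals. Orders over all 10 areas, here and below, include MT, the orbitofrontal (OFC) and dorsolateral prefrontal (DLPFC) areas and the visual area V2, whose cre hybridisation controls varied more from array to array than those of the other 6, and the part of this in the order was not tested.

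SPP1 was likewise highest in layer 5 of both areas, in S1 by less than the spread between animals over layer 6. In layer 5 its level was 11.5 in female D, 10.97 in female E, 10.4 in male A and 10.4 in male C in M1, against 10.3, 10.4, 9.45 and 10.2 in the same animals in S1. Each animal was higher in M1 there, by 0.18 in male C and 1.13 in female D at the extremes, and the 2 groups overlapped. In layer 3 SPP1 was higher in M1 in female D, by 1.53, and in male A, by 1.38, and lower in female E, by -0.86, and in male C, by -0.72. The fitted difference in the mean of the layers was 0.44 ± 0.20 (adjusted p = 0.717), and SPP1 was higher in M1 in 11 of 15 pairs. SPP1 also ranked 1 in M1 and 2 in S1 among the 10 areas, at 9.77 ± 0.70 (SD, n = 3) and 9.32 ± 0.25 (SD, n = 4), with the other 8 areas between 7.68 and 9.27. For SPP1, too, S1 differed from MT, at 9.27 ± 0.27 (SD, n = 4), by less than the spread between animals, and in layer 5 alone S1 stood at rank 3, after MT.

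EPHA3 had a large estimated difference that was not shared by all animals. In layer 5 its level was 4.79 in female D, 4.65 in female E, 7.44 in male A and 5.62 in male C in M1, against 9.28, 8.02, 7.18 and 6.06 in the same animals in S1. The 2 females had low M1 values beside high S1 values, and in the males the 2 areas lay within 0.44 of each other. The fitted layer 5 difference in EPHA3 was -2.01 ± 0.65 (adjusted p = 0.596). In the mean of the layers the difference was -2.63 in female D, -2.52 in female E, -0.33 in male A and 0.32 in male C, for a fitted value of -1.29 ± 0.49 (adjusted p = 0.717). Without the 3 M1 arrays EPHA3 was at -0.93 in the mean of the layers and at 0.097 in layer 3, where it had been at -1.40. In layer 3 this left the 2 male pairs, at -0.43 in male A and 0.68 in male C. The female pairs left out there were at -2.75 in female D and -3.08 in female E. EPHA3 ranked 10 of 10 areas in M1, at 6.68 ± 0.77 (SD, n = 3), and 8 in S1, at 7.62 ± 0.93 (SD, n = 4). ACG, the anterior cingulate gyrus, lay between them at 7.18 ± 0.41 (SD, n = 4), and its EPHA3 mean differed from that of M1 and of S1 by less than the SD over animals in M1 and in S1.

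**Figure D2:**
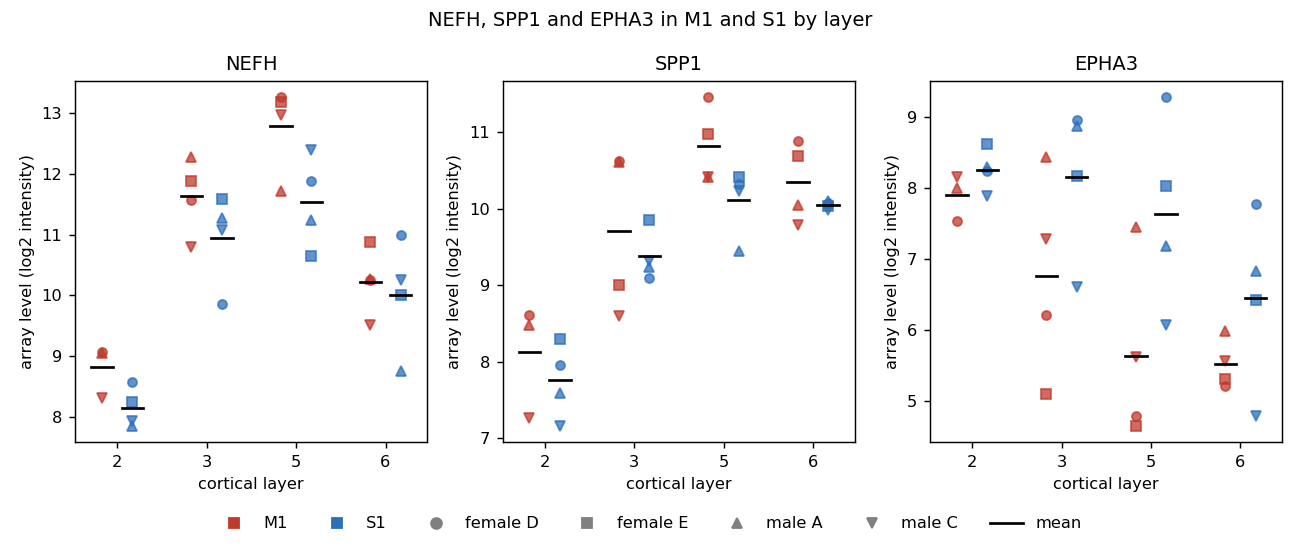
Levels (log2 intensity) of NEFH, SPP1 and EPHA3 are plotted for each array by cortical layer, M1 in red to the left and S1 in blue to the right, with a shape for each animal and a black bar at the mean. NEFH peaks in layer 5 of both areas, with means of 12.8 in M1 and 11.5 in S1, and EPHA3 in M1 layers 3 and 5 separates the 2 females, low, from the 2 males.

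In the absence of calls, the genes at either end of the ranking by moderated t in the mean of the layers, 3 each way, are given as a description. PLA2G4E, a cytosolic phospholipase, was at 0.43 ± 0.087. Its mean level over the M1 and S1 arrays was 4.79, close to the low-intensity filter of 4.72. KLK6, a secreted serine protease made largely by oligodendrocytes, was at 0.64 ± 0.13, with 1.04 in female D, 0.73 in female E, 0.50 in male A and 0.29 in male C. G6PC1, the catalytic subunit of glucose-6-phosphatase, was at 0.45 ± 0.10 and was higher in M1 in 15 of 15 pairs, at levels of 5.14 in M1 and 4.69 in S1 that lie close to the low-intensity filter of 4.72.

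The 3 lowest were CFAP210, a cilia and flagella associated protein, at -0.55 ± 0.11, PRR15 at -0.44 ± 0.095 and PDE5A at -0.54 ± 0.12. PDE5A, the phosphodiesterase that breaks down cyclic GMP, was at -0.64 in female D, -0.86 in female E, -0.40 in male A and -0.27 in male C, and at -0.25 without the 3 M1 arrays. A second, dimmer probe set of PDE5A was at 0.036. All of these genes had the same sign in the 4 animals, and each had an adjusted p of 0.717.

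In single layers the only called gene was MOXD1, in layer 5, a monooxygenase of the dopamine beta-hydroxylase family. It was 1 gene of 10323 (0.00969%), and in layer 5 there were 807 genes at an unadjusted p under 0.05, 259 higher and 548 lower in M1. MOXD1 in layer 5 was at 7.90 in female D, 8.004 in female E, 8.45 in male A and 8.06 in male C in M1, against 8.99, 9.19, 9.64 and 8.75 in the same animals in S1. The 2 groups did not overlap. MOXD1 fell in M1 layer 5 by 1.04 (standard error 0.15, adjusted p = 0.0241), in 4 of 4 animals.

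In the other layers the MOXD1 pair differences ran from -0.37 to 0.38 in layer 2, from -0.67 to -0.080 in layer 3 and from -0.28 to 0.20 in layer 6. Without the 3 M1 arrays, the layer 5 difference in MOXD1 was -0.99 and its adjusted p 0.580. With layer 5 fitted on its own pairs it was -1.04 with an adjusted p of 0.643, and leaving out female D, female E or male A gave adjusted p values of 0.287, 0.782 and 0.245. MOXD1 in layer 5 averaged 8.10 ± 0.24 in M1 and 9.14 ± 0.38 in S1 (SD, n = 4 each), while the means of layer 5 in the other 8 areas ran from 8.05 to 9.62, with M1 at rank 9 of 10.

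Layer 3 had the most genes at an unadjusted p under 0.05, 1659, with 520 higher and 1139 lower in M1, and 0 called (0%; lowest adjusted p of limma 0.0595, in a gene with a LOC symbol). The 2 female pairs of layer 3, which hold 2 of the 3 arrays that stood apart, had the widest differences over all genes, with an SD of 0.65 in female D and 0.75 in female E, against 0.36 in male A and 0.32 in male C. Without the 3 M1 arrays 236 genes were at an unadjusted p under 0.05 in layer 3. That fit holds 2 layer 3 pairs, both of males, so the 236 cannot be set against the 1659. Without male C 67 genes were called in layer 3, 10 of them higher in M1. The part of the 3 arrays' properties in these counts was not tested beyond leaving them out.

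The genes at the ends of the layer 3 list were JAG1, a Notch ligand, at -1.15 ± 0.22, ZMYND12 at -0.95 ± 0.17 and PRR15 at -0.89 ± 0.15 on the low side. On the high side they were CD2AP, an adaptor that links membrane proteins to actin, at 1.59 ± 0.33, SNAPC4, a subunit of the complex that transcribes small nuclear RNA genes, at 0.72 ± 0.15, and GFRA3, the receptor for artemin, at 0.62 ± 0.13. Their adjusted p values ran from 0.0966 for PRR15 to 0.157 for CD2AP. Without the 3 M1 arrays, which leaves the 2 male pairs in layer 3, the differences were -0.64 for JAG1, -0.60 for ZMYND12, -0.70 for PRR15, 1.01 for CD2AP, 0.54 for SNAPC4 and 0.55 for GFRA3, each with an adjusted p of 1.00. A second probe set of SNAPC4 had the opposite sign in the mean of the layers.

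Layers 2 and 6 had 0 called genes each (0%), with 174 and 226 genes at an unadjusted p under 0.05 by limma and lowest adjusted p values of 1.00 and 0.614. In layer 2, with 3 pairs, the ends of the list were ADAMTS13, the protease of von Willebrand factor, at 0.83 ± 0.19, GTPBP6 at 0.57 ± 0.13 and TYMS, thymidylate synthase, at 0.98 ± 0.28, and on the low side STX1A, a presynaptic SNARE protein, at -0.76 ± 0.21, DSG2, a desmosomal cadherin, at -0.66 ± 0.21 and PPHLN1 at -0.88 ± 0.28. In layer 6 they were KRBA2 at 0.77 ± 0.14, TMT1A at 1.09 ± 0.22 and EXOSC3, a subunit of the RNA exosome, at 0.66 ± 0.17, and on the low side TSSK6, a serine kinase known from testis, at -0.76 ± 0.19, NHLH1, a neuronal helix-loop-helix factor, at -0.44 ± 0.11 and ERGIC1 at -0.81 ± 0.21. A dimmer probe set of ERGIC1 gave 0.0076 in the mean of the layers where the one used gave -0.32.

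No gene was called for a difference between areas that varied with the layer. The test over the 4 layers called 0 of 10323 genes (0%; lowest adjusted p 0.723), with 575 genes at an unadjusted p under 0.05. The contrast of layer 5 with the other layers also called 0 genes (0%; lowest adjusted p 0.601), with 473 at an unadjusted p under 0.05. For NEFH the layer 5 difference exceeded that of the other layers by 0.65 ± 0.41, for SPP1 by 0.35 ± 0.31, and for EPHA3 it was lower by -1.04 ± 0.47, each with an adjusted p of 0.993.

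At the ends of the layer 5 contrast were TSSK6 at 1.09 ± 0.20, TP63 at 0.78 ± 0.19 and TMEM191C at 0.75 ± 0.19, and on the low side TPBG, a membrane glycoprotein that modulates Wnt signalling, at -1.03 ± 0.21, CDAN1 at -0.91 ± 0.18 and MOXD1 at -0.85 ± 0.16. The 4 genes with the highest F over the layers were TSSK6, EXOSC3, TRPM7, an ion channel fused to a kinase, and KRBA2, whose differences spanned 1.60, 1.49, 1.29 and 1.16 from the lowest to the highest layer.

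Of the 31 gene lists, 10 are described here, chosen after their values were seen, and no member of any list was called in the mean of the layers. Over all 10323 genes the median difference was -0.015, with 4718 genes above 0 and 5605 below. Genes of large projection neurons and neurofilaments had a median of 0.21, with 7 of 9 measured members above 0, and the median by animal was 0.16 in female D, 0.11 in female E, 0.51 in male A and -0.017 in male C. KCNA1, a voltage-gated potassium channel of axons, was higher in M1 in every animal at 0.41 ± 0.11, as was VAMP1, a vesicle SNARE of fast synapses, at 0.41 ± 0.14. These 2 are the members of that list with the same sign in all animals.

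Myelin and oligodendrocyte genes had the highest median of the lists, 0.28, with 20 of 21 members above 0. By animal the median was 0.70 in female D, 0.25 in female E, 0.19 in male A and -0.062 in male C, and without the 3 M1 arrays the list stood at 0.22. By layer the list median was 0.35 in layer 2, 0.41 in layer 3, 0.093 in layer 5 and 0.097 in layer 6. MYRF, a transcription factor of myelin genes, was at 0.35 ± 0.11 and ERBB3, a neuregulin receptor, at 0.36 ± 0.11. These were the only 2 of the 21 members higher in every animal, where 6.05% of all genes tested were. CNP, a myelin enzyme, was at -0.024 ± 0.085. The mean level of the list ran from 7.38 to 9.90 with a median of 9.13 over the M1 arrays, and from 7.28 to 9.63 with a median of 8.87 over the S1 arrays. KLK6, named above, was not in this list.

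The layer 5 neuron list had a median of 0.082 in the mean of the layers, with 7 of 11 members above 0. In layer 5 itself its median was 0.39, against -0.045 in layer 2, 0.037 in layer 3 and -0.036 in layer 6. By animal the median over the layers was 0.20 in female D, 0.54 in female E, -0.25 in male A and 0.17 in male C. FEZF2, which specifies neurons that project below the cortex, was at 0.56 ± 0.22, with 1.07 in female D, 0.84 in female E, -0.35 in male A and 0.66 in male C, and HS3ST2, a heparan sulfate sulfotransferase, was at 0.44 ± 0.15, with -0.10 in male C. TRIB2, a pseudokinase, was the lowest member at -0.31 ± 0.15, with 0.14 in male C. Upper layer genes had a median of -0.22 with 14 of 15 members below 0, at -0.42 in female D, -0.39 in female E, -0.28 in male A and 0.059 in male C. Of these, CUX2, a homeobox gene of upper layer neurons, was at -0.58 ± 0.23 and LAMP5, a lysosome-associated membrane protein, at -0.22 ± 0.11.

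The layer 4 list, read here in the other layers, had 5 measured members and a median of -0.15, at -0.11 in female D, -0.78 in female E, 0.079 in male A and 0.16 in male C. RORA, a nuclear receptor, was at 0.31 ± 0.16 and higher in every animal, and CCN2, a matrix-associated growth factor, was at -0.55 ± 0.18 and lower in every animal. In S1, CCN2 averaged 7.95 in layer 2, 7.81 in layer 3, 7.46 in layer 5 and 7.60 in layer 6. The S1 layer 4 arrays were not used, so whether CCN2 marks layer 4 here was not tested.

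Inhibitory neuron genes had a median of -0.22 with 7 of 11 members below 0, and of -0.031 without the 3 M1 arrays. By animal the median was -0.26 in female D, -0.26 in female E, -0.0023 in male A and -0.0027 in male C. NPY, a neuropeptide of interneurons, was at -0.49 ± 0.14 and lower in every animal, and PVALB, the calcium buffer of fast spiking interneurons, ran from -0.72 in male C to 1.73 in male A. Perineuronal net and matrix genes had a median of 0.17, with 5 of 7 members above 0. LUM, the matrix proteoglycan lumican, was at -0.48 ± 0.12 and lower in every animal, and ACAN, the main proteoglycan of these nets, was at 0.49 ± 0.18, with 0.99 in female D, 0.64 in female E, 0.51 in male A and -0.19 in male C.

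Activity-regulated genes had a median of -0.20 with 12 of 14 members below 0, at -0.63 in female D, -0.16 in female E, 0.091 in male A and -0.23 in male C, and at -0.26 without the 3 M1 arrays. EGR2, an immediate early transcription factor, was at -2.58 in female D, -1.38 in female E, -0.19 in male A and -0.79 in male C. BDNF, a neurotrophin, was at -0.31 ± 0.091 and NR4A1, an orphan nuclear receptor, at -0.46 ± 0.14, and both were lower in every animal.

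Eph receptors and ephrins, a list of 14 measured genes that includes EPHA3, had a median of -0.012, with 6 members above 0 and 8 below. EPHA5, another receptor for ephrin-A ligands, was at -0.47 ± 0.18 and lower in every animal, and EFNA1, an ephrin-A ligand, was at -0.19 ± 0.10. Areal patterning factors had a median of -0.14 with 16 of 20 members below 0, at -0.090 in female D, -0.51 in female E, -0.037 in male A and 0.055 in male C. The other 21 lists, among them receptors, channels, synaptic and metabolic genes, had medians from -0.14 to 0.11.

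**Figure D3:**
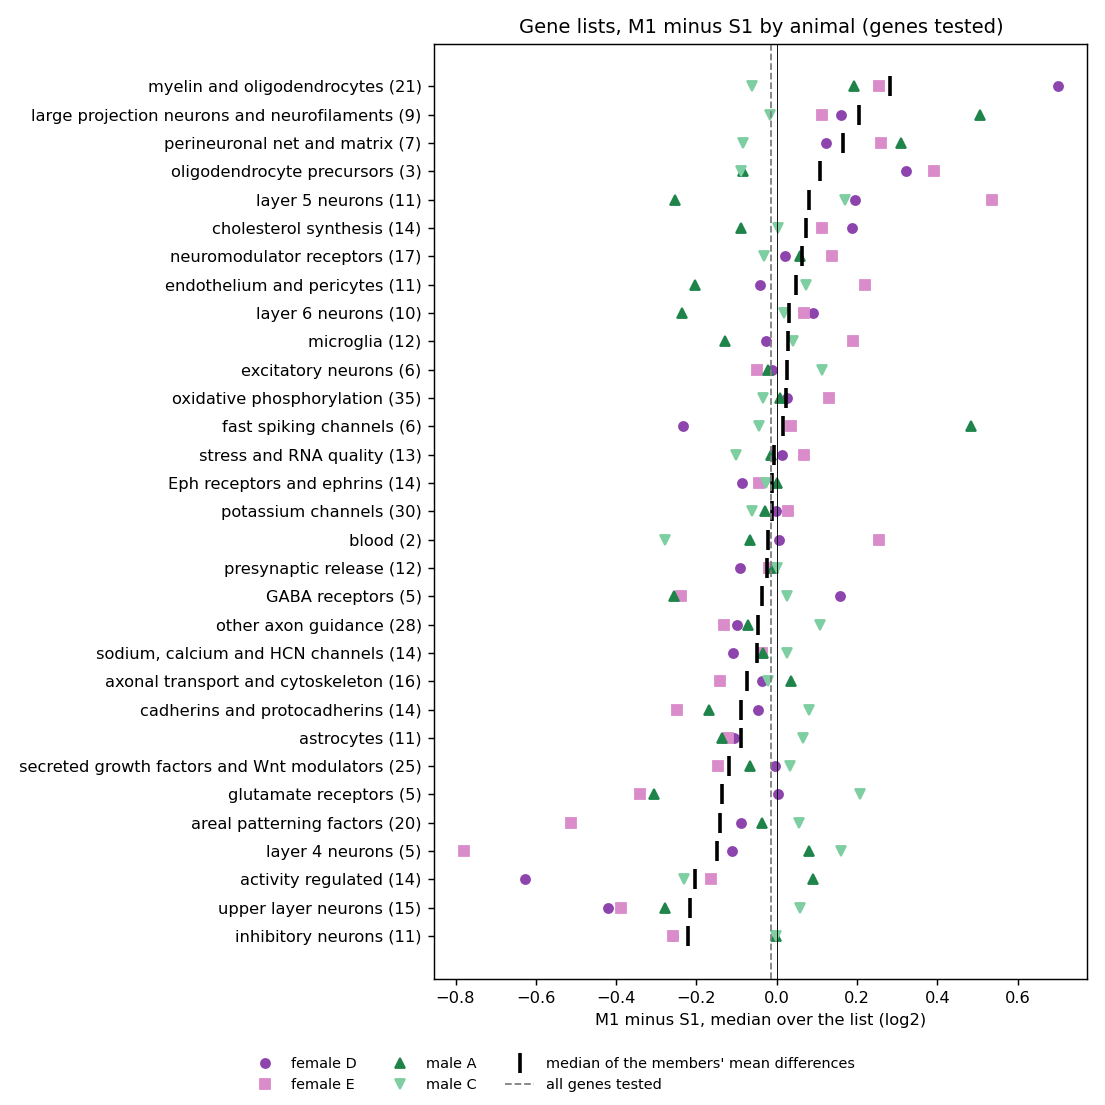
For each gene list (rows, with the number of genes tested) the median M1 minus S1 difference (log2, mean of the layers) is plotted per animal by shape and colour, with a black bar for the median over the members' mean differences and a dashed line at -0.015 for all genes tested. The myelin list is highest at 0.28 and the inhibitory neuron list lowest at -0.22. Male C is at -0.062 in the myelin list and at 0.059 in the upper layer list, on the other side of 0 from the other 3 animals in both.

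Because the 2 females resembled each other, the difference between females and males in M1 minus S1 was fitted after the data had been seen, with 2 animals of each sex. This contrast was chosen on the same values that it tests, and its adjusted p values do not allow for that choice. It called 3 of 10323 genes (0.0291%), all with a lower M1 value relative to S1 in females: MET at -2.56 ± 0.18 (adjusted p = 0.0116), RSPO2 at -1.86 ± 0.17 and EPHA3 at -2.57 ± 0.24 (adjusted p = 0.0296 each). MET is the receptor of hepatocyte growth factor and RSPO2 a secreted enhancer of Wnt signalling. With 2 animals a sex, sex cannot be told apart from other differences between these animals, and all 3 arrays that stood apart are M1 arrays of the females.

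MET in layer 3 was at 5.19 in female D, 4.17 in female E, 8.58 in male A and 4.08 in male C in M1, against 8.12, 8.95, 8.23 and 4.202 in the same animals in S1. Male C was low for MET in both areas, so its M1 level in layer 3 was as low as in the females while its 2 areas differed by -0.12. Over all layers MET in male C ran from 3.16 to 5.33 in M1 and from 3.39 to 4.79 in S1, mostly under the low-intensity filter of 4.72, as were most female M1 values in layers 2, 3 and 6, so low signal limits these differences. The MET pair differences ran from -4.79 to -0.64 in the females and from -0.98 to 0.72 in the males. RSPO2 pair differences ran from -2.89 to -0.27 in females and from -0.31 to 0.68 in males. Without the 3 M1 arrays the female minus male difference of RSPO2 was -0.97 and that of EPHA3 -1.85, each with an adjusted p of 0.666, and MET was the 1 gene called. Those values set female E by its layer 6 alone, where RSPO2 was at -0.27 and EPHA3 at -1.11. The calls also depended on single animals: 0 genes were called without female E, none of MET, RSPO2 and EPHA3 passed without male C (lowest adjusted p of the 3 by limma 0.0502), and RSPO2 did not pass without male A (adjusted p = 0.221).

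**Figure D4:**
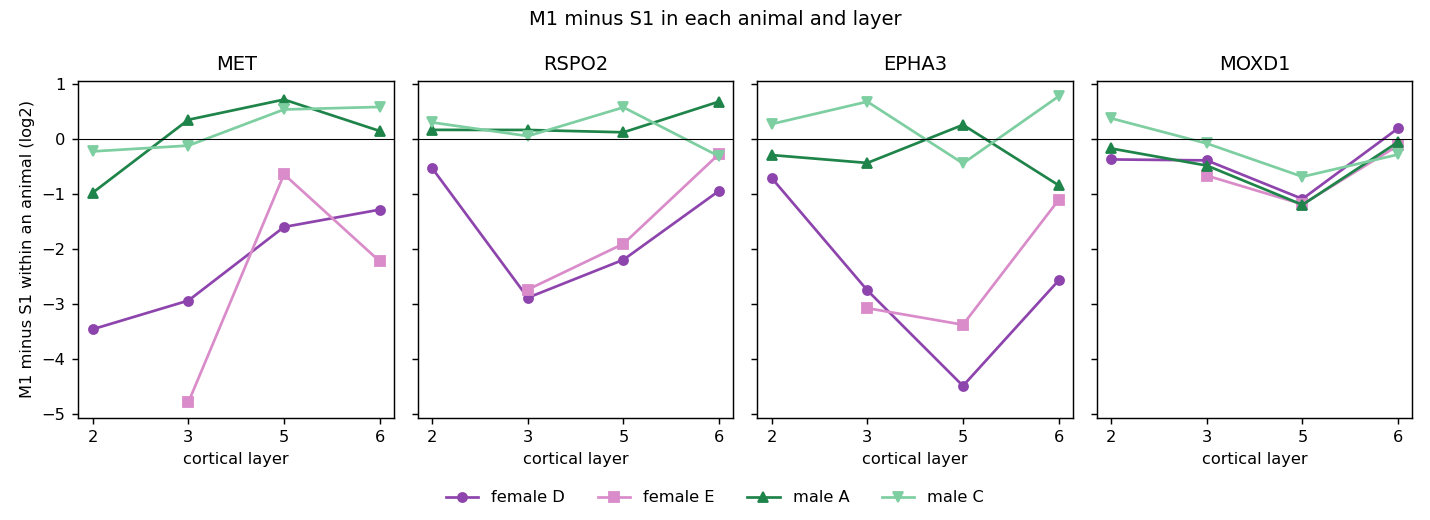
M1 minus S1 differences (log2) within an animal are plotted against cortical layer for MET, RSPO2, EPHA3 and MOXD1, with 1 line per animal (female E has no layer 2 pair). In MET, RSPO2 and EPHA3 both females lie below both males in the mean over layers, whereas MOXD1 is below 0 in layer 5 in all 4 animals, at -1.20 to -0.68.

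The number of genes called between M1 and S1 was set beside that between each of them and the other areas, fitted in the same paired way. The counts that involve M1 or S1 come from comparisons that share the M1 or S1 arrays, and no test of the difference between counts was made. The counts of M1 against other areas include the 3 M1 arrays that stood apart and were not made without them. The counts given here are limited to the areas whose cre hybridisation controls varied little from array to array, M1, S1, A1, TE, ACG and V1, with SDs of 0.071 to 0.11, since the labels do not say which array was amplified in which batch. Against A1, the primary auditory cortex, 517 genes (4.99%) were called in M1 and 362 (3.51%) in S1. Against TE, a temporal visual area, there were 178 (1.72%) for M1 and 833 (8.08%) for S1. Against ACG, with 3 animals, there were 617 (5.93%) for M1 and 2248 (21.7%) for S1. Against V1, the primary visual cortex, there were 1538 (14.8%) for M1 and 3151 (30.6%) for S1. Few calls were also found between A1 and TE, with 3 of 10333 genes (0.029%) in 4 animals. The SD of the differences over genes was 0.17 between M1 and S1, near those of S1 with TE, 0.18, and with A1, 0.20, and above that of A1 with TE, 0.12. It was 0.36 between M1 and V1 and 0.37 between S1 and V1.

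**Figure D5:**
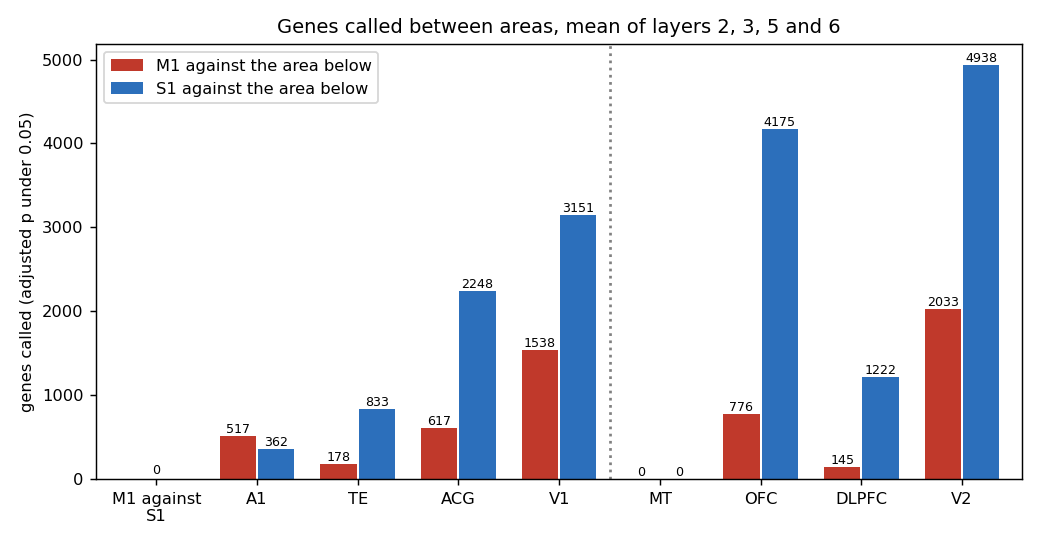
Bars give the number of genes called (adjusted p under 0.05, mean of layers 2, 3, 5 and 6) for M1 (red, left) and S1 (blue, right) against each of the other 8 areas. Areas right of the dotted line had cre controls that varied more between arrays. M1 against S1 has 0 calls, as does each of them against MT, with the other counts between 145 and 4938. Comparisons with ACG, MT, OFC and DLPFC rest on 3 animals and the others on 4, so the counts are not alike. At an unadjusted p under 0.05 by limma there were 14.4% of genes for M1 and 18.6% for S1 against MT, and 5.53% for M1 against S1.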

How the data were processed

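RNA of laser-captured pieces was hybridised to GeneChip Rhesus Macaque Genome arrays. The deposited values are log10 intensities of normalized probe sets: per the file headers, the authors ran RMA in Matlab within each amplification batch and then rescaled every probe set with the whole brain controls that the batches share. Here they were multiplied by the log2 of 10. No scanner files were used, so background correction could not be varied. Of 52865 probe sets, 24969 carried 1 symbol in the platform annotation, of which 24616 had their Entrez ID, with the same symbol, in the macaque RefSeq list, which served for names alone. A gene was its brightest probe set over 225 arrays. The gene mean over the 31 arrays had to exceed 4.72, the median of all probe sets, which left 10323 of 14132 genes.

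Differences were formed within animals and tested with limma, version 3.58.1, run under R 4.3.3: 1 value per animal for the mean of the layers, and pair values with animal as a random block (correlation 0.118) for single layers, so the fitted layer 2 value borrows from female E's other layers. Layer dependence had animal as a fixed block. Replicates are animals, and the same-numbered arrays are the same animal by the labels. M1 and S1 arrays of 1 animal deviated together from their group means (median r 0.178 over 60 pairs). For different animals the median r was -0.051, which is no independent comparison, because the deviations within a group sum to 0. For arrays, their number limits the precision. The code was tested on simulated data.

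The members, lists, comparisons and rules were chosen with earlier results of these data known. Named genes are NEFH, SPP1 and EPHA3 and, in comparisons without calls, the genes at both ends of the moderated t ranking, 3 each way (the top 4 for F), leaving out LOC symbols. List members named in the text, and the 4 genes past 2-fold, were chosen after their values were seen. No genome was given, so no coordinates or sequences are printed.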

Additional observations from a re-analysis of the deposited data

Results flagged for a closer look

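In the mean of the layers the M1 minus S1 differences of 65 genes and gene lists were checked for 1 animal far from the other 3, and chance flags about 1 in 20 such groups. CFAP210 was flagged for female E, at -0.88, with the other 3 animals between -0.46 and -0.41. Female E has no layer 2 pair, and CFAP210 in layer 2 was at 0.56 in female D, -0.41 in male A and 0.34 in male C. Over layers 3, 5 and 6 alone, chosen after seeing the data, CFAP210 was at -0.80 in female D, -0.88 in female E, -0.44 in male A and -0.66 in male C, so female E no longer stood apart. The median of the astrocyte list was flagged for male C, at 0.064, with the other 3 animals between -0.14 and -0.11, and at 0.049 against -0.20 to -0.12 over layers 3, 5 and 6.

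The M1 minus S1 difference of 3 genes differed between females and males by a fitted contrast of 2 animals each. EPHA3 was at -2.57, MET at -2.56 and RSPO2 at -1.86, with both females below both males in each gene. The genes were picked by this contrast, so that order adds no further support. The 3 M1 arrays with high poly-A controls are female arrays, and their part in the difference was tested only by leaving them out, as given in the text.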

How the results depend on the processing

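The mean of the layers, layers 2 and 6, the layer dependence and the layer 5 contrast had 0 calls under every alternative run, among them no replicate block, no filter and a stricter filter (75th percentile), every probe set, quantile normalization, 3 complete animals and leaving out each animal. Without the replicate block (unpaired), layer 5 kept 1 call, MOXD1, and the mean of the layers, layers 2, 3 and 6, the layer dependence and the layer 5 contrast had 0 calls; females against males was not run that way. The layer 3 count without 1 animal ran from 0 to 67 (67 without male C, 1 without female E). The layer 5 count ran from 0 to 1 without 1 animal, and was 0 with each layer fitted alone, with every probe set and without the 3 M1 arrays. The count between females and males ran from 0 (without female E) to 514 (without female D), and was 1 without male C, 1 with every probe set and 1 without the 3 M1 arrays, an alternative chosen after seeing the data; without 1 animal of a sex, the lone animal is assumed to vary like the others. Without 1 animal, SPP1 in layer 3 ran from -0.065 (without female D) to 0.73, and was at -0.016 without male A. NEFH in layer 6 ran from -0.20 (without male A) to 0.55 without 1 animal. EPHA3 in layer 3 was at 0.097 without the 3 M1 arrays, which leaves the 2 male pairs there. None of these was called, and the cause was not tested. Of the other values of named genes under alternatives, 562 kept their direction and side of the threshold, 17 were no longer past it and 3 newly passed it. Of the list medians, 380 moved by less than the spread between animals and 22 by more. The number of animals, 4, limits what could be called.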
